A study of Mus musculus with 12 samples.

Results

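Cholesterol synthesis in the liver was followed through 26 genes: the enzymes that build cholesterol from acetyl-CoA, the proteins that control the transcription factor SREBP2, and 3 proteins that move sterols out of or within the cell. They were chosen by symbol and had to reach a mean of 0.5 RPKM (reads scaled to gene length and library total) over all libraries. All 26 were found among the 24475 genes of the table, and all 26 were among the 11347 genes that reached that mean, from Ggps1 at 2.83 RPKM to Fdps at 197 RPKM. The data are polyadenylated RNA sequencing of frozen whole liver from fed mice, with 6 wild-type libraries (WT 1 to 6) and 6 libraries from mice without Gcg (Gcg KO 7 to 12). Gcg encodes the precursor from which glucagon is cut, and the same precursor gives glucagon-like peptides, so the knockout removes more than glucagon. The sources used here give no strain, sex or age and not the way the allele was made. The labels do not say that each library came from a separate animal, so the p-values rest on the spread between libraries alone, and part of that spread may be technical.

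Cholesterol is made in the cytosol and endoplasmic reticulum. Acetyl-CoA units are joined and reduced to mevalonate, which is turned into isoprenoid diphosphates, then squalene, then lanosterol, and lastly cholesterol. SREBP2, the product of Srebf2, is held in the endoplasmic reticulum membrane by Scap and the Insig proteins while sterols are plentiful. When sterols fall it is carried to the Golgi, cut, and enters the nucleus, where it raises transcription of most enzymes of the route. Hepatocytes are a main site of this synthesis and of the removal of sterols into bile.

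The libraries held an estimated 10300000 to 15000000 reads. Gcg, which is transcribed in the pancreas and gut, had a value of 0 RPKM in each of the 12 libraries, so it checks no label. The sums of 5 hepatocyte markers were 39735 to 51983 RPKM in WT and 38024 to 49198 in Gcg KO. In bulk tissue, fewer cells of a type and less RNA per cell cannot be told apart. WT 6, Gcg KO 10 and Gcg KO 12 stood apart from the other 9 libraries. Igfbp1, a gene held down by insulin, was at 6.22 to 14.2 RPKM in these 3 and at 159 to 738 in the others, and the sum of 5 neutrophil markers was 2.17 to 2.93 RPKM against 18.3 to 66.9. The counts of changed genes and some of the other results are therefore also given without these 3 libraries.

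Promoters are shown for the 7 members most like Sqle across libraries (described further on) among those with a stretch to print, in that order, and for the pair of efflux genes with a negative correlation. RefSeq promoter windows of build GRCm38.p6, from 250 bases before to 50 bases after each start, were found for 22 of the 26 members, in 29 windows. Fdps, Fdft1, Sqle and Stard4 had no entry. Each line gives the stretch before the start that no GENCODE exon covers, on the gene's own strand, and the Idi1 window left no such stretch. Capitals mark CCAAT or its reverse complement ATTGG, the core bound by nuclear factor Y, and in Hmgcs1 also TCACNCCAC, a form of the sterol regulatory element to which SREBP proteins bind.
Cyp51, chr5:4104747-4104947, minus strand: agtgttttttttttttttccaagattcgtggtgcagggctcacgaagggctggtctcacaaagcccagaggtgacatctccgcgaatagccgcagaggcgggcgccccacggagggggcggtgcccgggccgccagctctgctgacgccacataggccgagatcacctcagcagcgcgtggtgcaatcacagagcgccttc
Msmo1, chr8:64733793-64733828, minus strand: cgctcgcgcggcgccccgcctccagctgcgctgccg
Dhcr7, chr7:143822917-143823144, plus strand: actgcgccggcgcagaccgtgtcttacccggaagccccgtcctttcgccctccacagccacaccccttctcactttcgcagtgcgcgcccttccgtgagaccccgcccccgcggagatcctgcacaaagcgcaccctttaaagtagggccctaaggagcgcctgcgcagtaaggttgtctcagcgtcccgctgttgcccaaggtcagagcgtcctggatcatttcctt
Nsdhl, chrX:72918412-72918520, plus strand: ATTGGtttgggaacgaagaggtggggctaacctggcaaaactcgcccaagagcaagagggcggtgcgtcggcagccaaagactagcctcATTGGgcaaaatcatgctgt
Mvk, chr5:114444061-114444268, plus strand: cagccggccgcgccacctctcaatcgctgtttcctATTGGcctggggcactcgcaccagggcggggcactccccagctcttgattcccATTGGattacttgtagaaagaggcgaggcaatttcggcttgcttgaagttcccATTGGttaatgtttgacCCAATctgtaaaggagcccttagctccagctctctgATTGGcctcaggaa
Mvd, chr8:122443423-122443672, minus strand: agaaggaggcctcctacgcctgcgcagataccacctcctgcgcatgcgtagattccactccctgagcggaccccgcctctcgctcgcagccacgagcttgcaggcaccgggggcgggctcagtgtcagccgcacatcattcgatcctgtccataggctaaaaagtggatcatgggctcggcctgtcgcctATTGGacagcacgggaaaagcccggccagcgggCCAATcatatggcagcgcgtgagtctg
Hmgcs1, chr13:119690101-119690350, plus strand: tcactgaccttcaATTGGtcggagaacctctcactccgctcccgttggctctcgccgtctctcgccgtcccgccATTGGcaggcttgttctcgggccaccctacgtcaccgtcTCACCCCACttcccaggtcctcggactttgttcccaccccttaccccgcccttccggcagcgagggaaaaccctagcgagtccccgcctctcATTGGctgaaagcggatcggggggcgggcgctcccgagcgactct
Abcg5 and Abcg8, chr17:84683012-84683120, read on the plus strand: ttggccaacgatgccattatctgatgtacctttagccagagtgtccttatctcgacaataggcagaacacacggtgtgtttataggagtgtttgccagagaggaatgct
The last of these lines is the whole space of 109 bases between the 2 divergent starts, with Abcg5 read leftward and Abcg8 rightward.

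CCAAT, on either strand, lay in a window of 20 of the 22 matched genes (90.9%), all but Acat2 and Scap, against 42.9% of the 8628 tested genes with a window. The Mvk stretch above holds 5 copies and the Hmgcs1 stretch 3. The stretches of Cyp51, Msmo1 and Dhcr7, the 3 most like Sqle, hold 0, and their matches lie elsewhere in their windows. The same holds for the stretch between Abcg5 and Abcg8. CCAAT was in 7 of the 7 matched genes with r of at least 0.8 with Sqle in both groups. It was in 13 of the 15 other matched genes. TCACNCCAC on either strand was found in 1 of the 22, Hmgcs1, against 1.60% of tested genes. The GC box core GGGCGG on either strand was in 18 of the 22 genes (81.8%) against 67.7% of tested genes. None of these motifs contains another. These are matches of letters in a short window, and Abcg5 and Abcg8 share most of theirs. A window without a match says only that these letters are not in it.

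The first comparison asked whether these genes differed between the genotypes. In Gcg KO 0 members were called higher and 0 lower: 0 of 26 passed an adjusted p of 0.05 in limma. Of all 11347 tested genes 3.87% passed (439 genes, 1.95% higher and 1.92% lower), so 0 of 26 is near that share. At an unadjusted p under 0.05 there were 2 of 26 members, Ebp and Scap, against 15.7% of tested genes. No member had groups that did not overlap, which 3.09% of tested genes had. The mean was higher in Gcg KO for 11 members and lower for 15, and the median log2 fold change was −0.02 over the members and 0.01 over all tested genes. Fold changes are Gcg KO over WT of log2(RPKM + 0.5). The 95% intervals of single members reached from −0.63 (Fdps) to 0.70 (Nsdhl), so a 2-fold change in either direction lay outside every one of them. Some were much narrower, such as −0.23 to 0.06 for Acat2, −0.20 to 0.13 for Srebf2 and −0.24 to 0.23 for Tm7sf2. Without the 3 libraries that stood apart the counts were again 0 and 0, with 2.65% of 11284 tested genes called, and the lowest adjusted p was 0.153 (Sc5d).

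**Figure D1:**
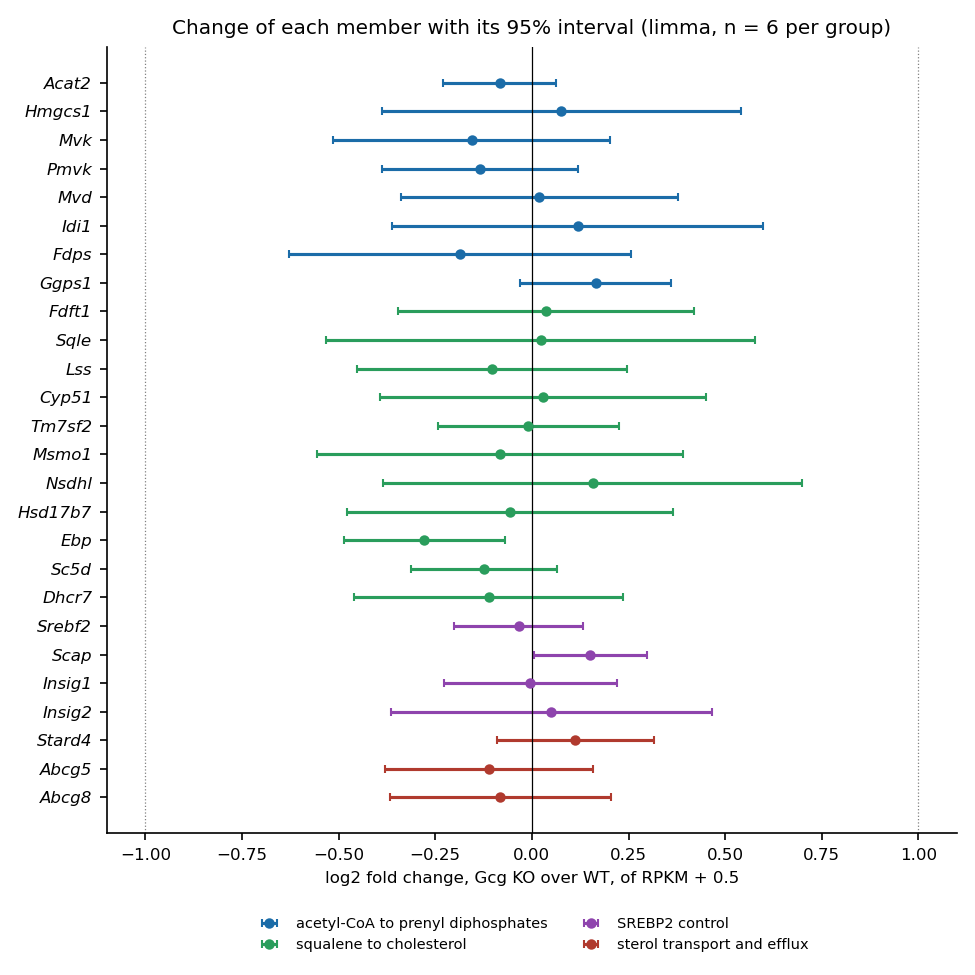
Log2 fold change of each of the 26 members, Gcg KO over WT, on the scale of log2(RPKM + 0.5), with its 95% interval from limma (6 libraries per group), coloured by role. All intervals lie between the dotted lines at a 2-fold change; those of Ebp and Scap leave out 0 before adjustment over all genes.

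The early enzymes, from acetyl-CoA to the isoprenoid diphosphates, gave 8 members. Of these 0 were called, against 3.87% of all tested genes (lowest adjusted p in limma 0.415, Ggps1). Hmgcs1, which makes HMG-CoA in the cytosol, was at 114, 106, 154, 134, 212 and 101 RPKM in WT 1 to 6. In Gcg KO 7 to 12 it was at 110, 133, 168, 86.6, 187 and 184 RPKM. WT 5 was the highest and Gcg KO 10 the lowest of the 12, and the groups overlapped over most of their range. The log2 fold change of Hmgcs1 was 0.08 ± 0.22 (SE, n = 6 per group), with an adjusted p of 0.927 in limma.

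Idi1, the isopentenyl diphosphate isomerase, was at 82.9, 63.9, 82.4, 77.9, 136 and 65.8 RPKM in WT 1 to 6. In Gcg KO it was at 81.7, 67.1, 108, 55.3, 126 and 121 RPKM. WT 5 again stood above the other WT libraries, and in Gcg KO the 3 high libraries were 9, 11 and 12. The change was 0.12 ± 0.22 on the log2 scale (adjusted p = 0.874 in limma). Fdps, the farnesyl diphosphate synthase and the most abundant member per length, was at 261, 126, 165, 255, 284 and 175 RPKM in WT and at 162, 156, 169, 135, 236 and 236 RPKM in Gcg KO. Its lowest library was WT 2 and its highest WT 5, so both extremes were wild-type. Its log2 fold change was −0.19 ± 0.20 (adjusted p = 0.746 in limma).

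The mevalonate kinase Mvk, the phosphomevalonate kinase Pmvk and the decarboxylase Mvd were the other members of the mevalonate steps. Mvk was at 10.2 to 17.5 RPKM in WT (median 12.8) and 8.46 to 16.5 in Gcg KO (median 11.9). Pmvk was at 24.5 to 39.7 RPKM in WT (median 32.5) and 24.4 to 33.3 in Gcg KO (median 29.2). Mvd was at 7.95 to 14.0 RPKM in WT (median 10.1) and 7.25 to 14.0 in Gcg KO (median 10.7). In all 3 the range of each group took in the median of the other. Ggps1, which makes the longer geranylgeranyl diphosphate used on proteins, was the lowest member, averaging 2.64 ± 0.322 RPKM over the WT and 3.02 ± 0.361 over the Gcg KO libraries (SD, n = 6), with a log2 fold change of 0.17 ± 0.09. Acat2, the cytosolic thiolase that opens the route, averaged 104 ± 7.75 RPKM over the WT and 98.3 ± 7.97 over the Gcg KO libraries. Acat3 is a near copy of Acat2 beside it on chromosome 17, and how reads shared by the pair were counted is not given, so the Acat2 level is uncertain.

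**Figure D2:**
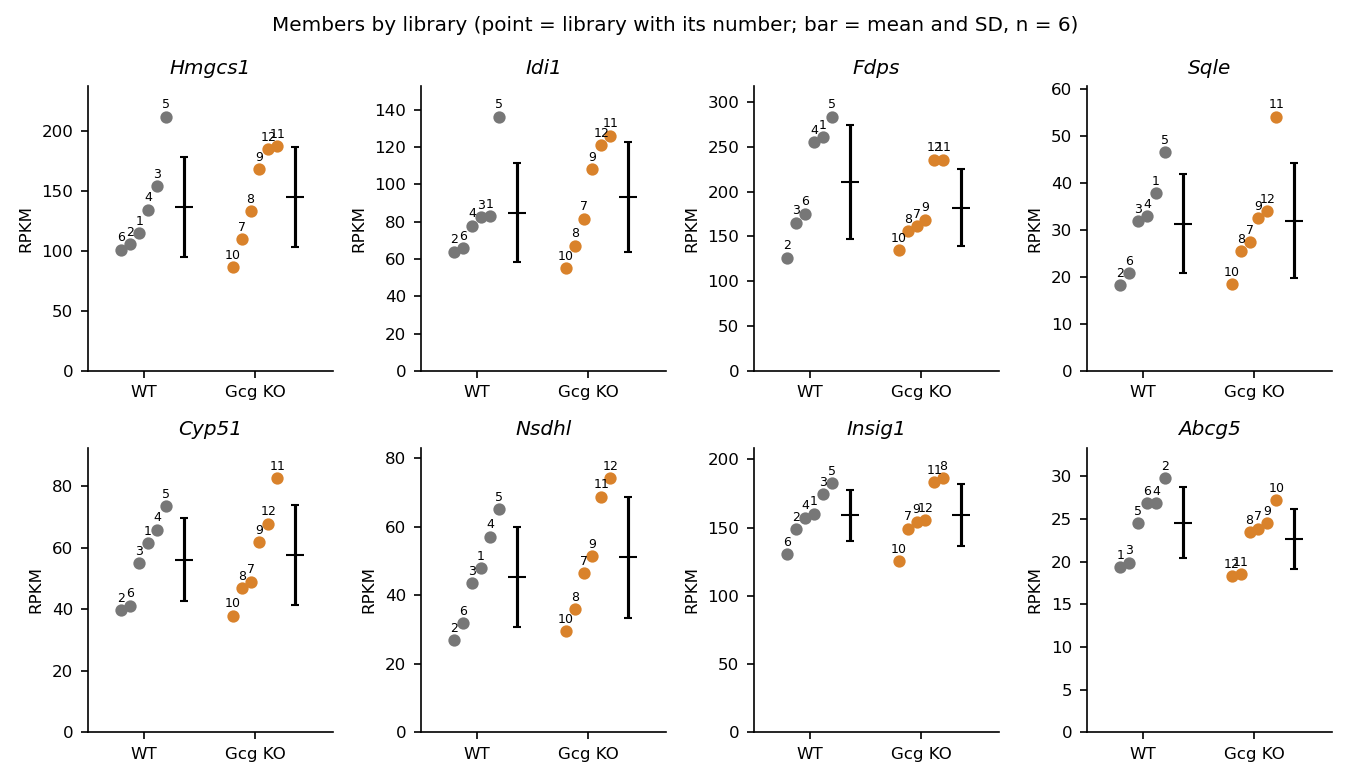
RPKM of 8 members in each library (points carry the library number and are spread from lowest to highest within a group), with the mean and SD of 6 libraries beside them; each axis starts at 0. Within both groups the enzymes range over about the same values, with library 5 at or near the top in WT and library 10 at the bottom in Gcg KO, while Abcg5 has library 10 at its top.

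From squalene to cholesterol there were 11 members, and 0 were called, against 3.87% of all tested genes (lowest adjusted p in limma 0.153, Ebp). Sqle, the squalene epoxidase and a slow step of the route (chr15:59315092-59331193, GRCm38), was at 37.8, 18.2, 31.9, 33.0, 46.5 and 20.8 RPKM in WT 1 to 6. In Gcg KO 7 to 12 it was at 27.4, 25.5, 32.5, 18.4, 54.1 and 33.9 RPKM. WT 2, Gcg KO 10 and WT 6 were low, Gcg KO 11 and WT 5 were high, and the remaining libraries lay together. The highest library was 2.56 times the lowest within WT and 2.94 times within Gcg KO, whereas the group means were 31.4 and 32.0 RPKM. The log2 fold change of Sqle was 0.02 ± 0.26, with a 95% interval from −0.53 to 0.58 and an adjusted p of 0.984 in limma.

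Cyp51, the lanosterol 14-demethylase, was at 61.3, 39.7, 54.9, 65.8, 73.5 and 41.1 RPKM in WT. In Gcg KO it was at 49.0, 46.8, 61.8, 37.9, 82.6 and 67.7 RPKM. The order of libraries was close to that of Sqle: WT 2, WT 6 and Gcg KO 10 were low and WT 5 and Gcg KO 11 were high. Its log2 fold change was 0.03 ± 0.20 (adjusted p = 0.975 in limma). Nsdhl, a sterol dehydrogenase that helps to remove the methyl groups at carbon 4, was at 48.0, 27.0, 43.6, 57.1, 65.1 and 31.8 RPKM in WT and at 46.4, 35.9, 51.4, 29.6, 68.8 and 74.2 RPKM in Gcg KO. Here Gcg KO 12 was the highest of all, and the low libraries were the same 3. Its log2 fold change was 0.16 ± 0.25 (adjusted p = 0.840 in limma).

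Fdft1, which makes squalene from farnesyl diphosphate, was at 37.0 to 70.3 RPKM in WT (median 52.0) and 38.0 to 71.1 in Gcg KO (median 56.8). Msmo1, the methyl sterol oxidase, was at 73.9 to 140 RPKM in WT (median 105) and 56.8 to 144 in Gcg KO (median 101). Hsd17b7, a sterol ketoreductase of the same demethylation, was at 11.98 to 23.7 RPKM in WT (median 16.1) and 10.3 to 24.7 in Gcg KO (median 16.5). Fdft1 had nearly the same span in both groups, while Msmo1 and Hsd17b7 spanned more in Gcg KO, where both reached lower. Dhcr7, which catalyses the last step of one branch to cholesterol, was at 27.4 to 56.7 RPKM in WT (median 38.7) and 28.6 to 46.5 in Gcg KO (median 36.5). Lss, the cyclase that forms lanosterol, was at 7.21 to 14.1 RPKM in WT (median 9.08) and 7.34 to 12.3 in Gcg KO (median 8.71). Tm7sf2, a sterol 14-reductase, was at 56.5 to 81.2 RPKM in WT (median 68.1) and 55.2 to 81.3 in Gcg KO (median 68.4).

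Ebp, the sterol isomerase, came nearest to a difference. It was at 139, 99.3, 94.2, 112, 109 and 107 RPKM in WT and at 87.4, 80.6, 82.5, 86.7, 104 and 102 RPKM in Gcg KO. Gcg KO 11 and 12 lay within the WT range, and the other 4 Gcg KO libraries lay below it. The log2 fold change was −0.28 ± 0.10 (unadjusted p = 0.0124, adjusted p = 0.153 in limma), and without the 3 libraries that stood apart it was −0.31 (adjusted p = 0.226). Sc5d, a sterol desaturase, was at 180 to 216 RPKM in WT (median 192) and 152 to 217 in Gcg KO (median 171). Unlike the enzymes above, its highest libraries were those that stood apart: these 3 held 202 to 217 RPKM of it and the other 9 held 152 to 200. The part of the state of these libraries in the Sc5d level was not tested. Its log2 fold change was −0.12 ± 0.09 with all libraries and −0.21 without the 3.

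Of the 4 members that control SREBP2, 0 were called, against 3.87% of all tested genes (lowest adjusted p in limma 0.295, Scap). Srebf2 itself was among the steadiest members, at 11.4 to 13.8 RPKM in WT (median 12.9) and 10.7 to 14.0 in Gcg KO (median 12.5). Its change was −0.03 ± 0.08 on the log2 scale (adjusted p = 0.902 in limma). RNA of Srebf2 does not measure how much SREBP2 protein is cut. Scap, the sterol-sensing escort of SREBP2, was at 29.1, 28.8, 30.7, 35.3, 30.8 and 31.1 RPKM in WT and at 30.2, 36.6, 32.1, 36.3, 35.1 and 36.4 RPKM in Gcg KO. WT 4 lay among the higher Gcg KO libraries and Gcg KO 7 among the WT ones. The log2 fold change was 0.15 ± 0.07 (unadjusted p = 0.0432, adjusted p = 0.295 in limma). Without the 3 libraries that stood apart it was 0.11 (adjusted p = 0.590 in limma).

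Insig1, which retains the Scap complex and is itself a target of SREBP2, was at 160, 149, 174, 157, 182 and 130 RPKM in WT. In Gcg KO it was at 149, 186, 154, 125, 183 and 156 RPKM. The lowest library of each group was WT 6 and Gcg KO 10, and the means were equal to 3 digits at 159 RPKM. Insig2, the second retention protein, was at 126, 193, 149, 141, 168 and 122 RPKM in WT and at 150, 218, 170, 127, 203 and 90.3 RPKM in Gcg KO. Its lowest values were in the libraries with low Igfbp1: WT 6 in WT, and Gcg KO 12 and 10 in Gcg KO. The part of library state in the Insig2 level was not tested. The log2 fold change of Insig2 was 0.05 ± 0.19 with all libraries (adjusted p = 0.948 in limma) and 0.25 without the 3 (adjusted p = 0.453).

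Of the 3 transport members 0 were called, against 3.87% of all tested genes (lowest adjusted p in limma 0.648, Stard4). Stard4, a soluble carrier of cholesterol, was at 20.6, 20.9, 20.7, 21.1, 23.1 and 20.9 RPKM in WT and at 22.2, 21.3, 22.2, 18.3, 29.3 and 26.04 RPKM in Gcg KO. The WT libraries lay close together (coefficient of variation, CV, 4.47%) and the Gcg KO libraries were spread on both sides of them (CV 16.8%). The difference in spread was not tested. Abcg5 and Abcg8 form the dimer that pumps sterols into bile. Abcg5 was at 19.4, 29.8, 19.9, 26.9, 24.5 and 26.8 RPKM in WT and at 23.9, 23.5, 24.5, 27.2, 18.5 and 18.3 RPKM in Gcg KO. Abcg8 was at 17.6, 28.2, 22.0, 31.0, 21.3 and 23.4 RPKM in WT and at 22.9, 22.4, 22.5, 28.3, 20.1 and 18.1 RPKM in Gcg KO. In Gcg KO both were highest in library 10 and lowest in library 12, the reverse of most enzymes in library 10. Their log2 fold changes were −0.11 ± 0.13 and −0.08 ± 0.13 (adjusted p = 0.754 and 0.843 in limma).

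Beside the members, 5 lists held 55 further genes of the pathway, of which 54 were in the table and 52 were tested. In Gcg KO 2 of the 52 rose and 0 fell, again against 3.87% of all tested genes. By list, 0 of 10 genes of SREBP cleavage and sterol-regulated degradation were called, and 0 of 12 of the isoprenoid branch. Of sterol storage and movement 1 of 13 was called, and of the LXR and efflux list 0 of 8. Of acetyl-CoA supply and electron donors 1 of 9 was called. The median log2 fold change of the 52 was 0.07. Cyb5r3, the reductase that passes electrons to cytochrome b5 for sterol and fatty acid desaturation, was at 198, 185, 179, 208, 193 and 198 RPKM in WT and at 257, 226, 228, 275, 251 and 253 RPKM in Gcg KO. All 6 Gcg KO libraries lay above all 6 WT libraries, with a log2 fold change of 0.36 ± 0.06 (adjusted p = 0.00519 in limma, and 0.0481 without the 3 libraries). Nceh1, a hydrolase of cholesterol esters, was at 4.98, 5.27, 5.39, 3.69, 4.47 and 6.26 RPKM in WT and at 6.04, 6.87, 6.15, 7.05, 7.95 and 9.21 RPKM in Gcg KO. WT 6 overlapped the 2 lowest Gcg KO libraries. Nceh1 rose by 0.49 ± 0.12 on the log2 scale (adjusted p = 0.0424 in limma). Without the 3 libraries the change was about as large, 0.47, and the call was lost (adjusted p = 0.0725 in limma). Among the 26 tested markers of other liver cell types 1 was called, Lyve1, a marker of sinusoidal endothelium. It ranged from 2.06 to 4.43 RPKM in WT and from 4.78 to 9.68 in Gcg KO (adjusted p = 0.0125 in limma), and the other 4 endothelial markers were not called. The summed level of the 5 was 46.7 to 62.6 RPKM in WT and 52.6 to 81.7 in Gcg KO. Their part in the Cyb5r3 and Nceh1 results was not tested.

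The second comparison was between libraries of the same genotype, where many of the members, mostly enzymes, differed more than most genes did and did so together. The median CV of the 24 members with a mean of at least 10 RPKM was 21.0% in WT and 19.8% in Gcg KO. Over the 3963 tested genes with that mean it was 10.4% and 10.1%. Below this background in WT were Stard4 (4.47%), Sc5d (6.66%), Acat2 (7.45%), Srebf2 (7.45%) and Scap (7.47%). In Gcg KO, Acat2 (8.11%) and Scap (7.77%) were below it. The other members lay above it in each group. In WT, library 5 was the highest of 6 for 15 of 26 members and library 2 the lowest for 13, where these libraries were highest and lowest for 12.7% and 12.3% of tested genes. In Gcg KO, library 11 was the highest for 16 members and library 10 the lowest for 14, against 11.6% and 11.7% of tested genes. Gcg KO 12 had 21 of 26 members above the mean of its group, whereas WT 6 and Gcg KO 10, which shared its low Igfbp1, had 5 each. Over all tested genes, the median deviation from the group mean was positive in these 3 libraries. It was 0.10 in Gcg KO 12, 0.06 in WT 6 and 0.06 in Gcg KO 10 on the log2 scale. Single genes went either way. Gcg KO 12, WT 6 and Gcg KO 10 were the highest of their group for 33.0%, 25.9% and 23.2% of tested genes. They were the lowest for 6.48%, 10.2% and 11.7%. Over the members the median deviation was 0.18, −0.22 and −0.32 in the same order. Its sign was that of the median over all tested genes in Gcg KO 12 and the opposite in the other 2. Members within a library share its scaling and are not replicates.

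**Figure D3:**
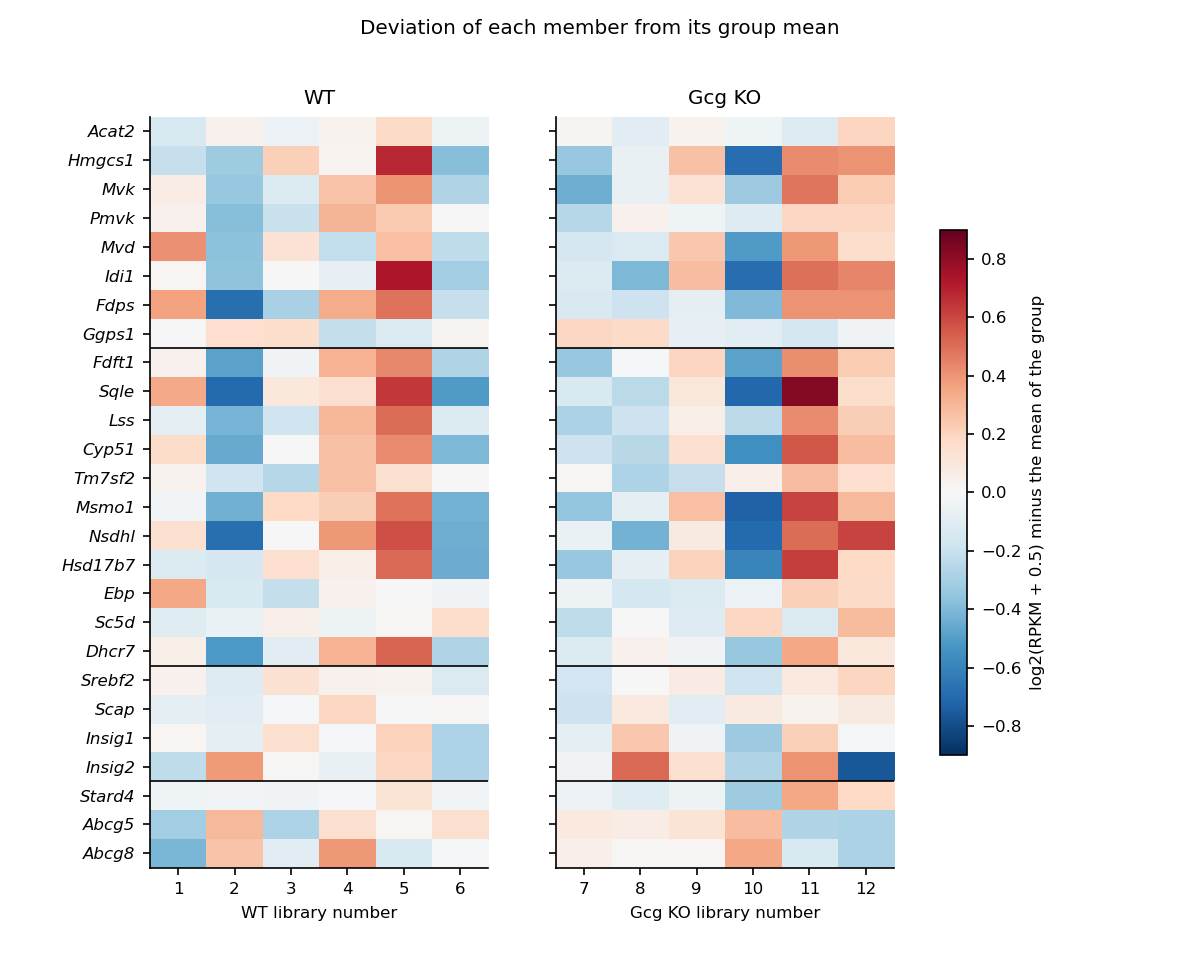
Deviation of each member in each library from the mean of its own group, in log2(RPKM + 0.5), with members in rows by role (lines separate the early enzymes, the late enzymes, the SREBP2 control genes and the transport genes). Most enzymes are high in WT 5 and Gcg KO 11 and low in WT 2, WT 6 and Gcg KO 10, while Abcg5 and Abcg8 are high in Gcg KO 10 and Insig2 is lowest in Gcg KO 12.

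Over the 325 pairs of members the median Pearson r was 0.451 across the 6 WT libraries and 0.450 across the 6 Gcg KO libraries. Over all pairs of tested genes it was 0.0555 and 0.140. Among the 171 pairs of the 19 enzymes it was 0.649 and 0.791. Pairs with r of at least 0.8 made up 20.6% of member pairs in WT and 33.2% in Gcg KO, against 4.15% and 5.56% of all pairs. The tested genes were not matched to the members in level. A mean of at least 10 RPKM was reached by 24 of 26 members and by 3963 of the 11347 tested genes. Without the 3 libraries that stood apart the median over members was 0.452 in the 5 remaining WT and 0.548 in the 4 remaining Gcg KO libraries. These are descriptions over few libraries whose genes share depth and scaling, and the difference between the genotypes was not tested.

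Sqle, the gene given as the marker of this group with earlier results known, served as the reference for single members. Cyp51 was the gene most like it: ranked by the lower of its 2 correlations, it stood first of the 11346 other tested genes. Its Pearson r with Sqle was 0.969 in WT and 0.972 in Gcg KO, with Spearman rho of 0.943 and 1. The exact permutation p of r was 0.00694 and 0.00139, the second being the smallest that 720 pairings of 6 libraries can give. Adjusted over 50 relations (25 members in 2 groups) these exact p-values were 0.0446 and 0.0347, and those of rho were 0.0556 and 0.0347. Without the 2 libraries farthest from the median of Sqle (WT 2 and 6, Gcg KO 10 and 11) r was 0.796 and 0.9896 over 4 libraries. Without those that stood apart it was 0.960 over 5 WT and 0.981 over 4 Gcg KO libraries.

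The next members in that ranking were Msmo1 (rank 4), Dhcr7 (7), Fdft1 (10), Fdps (12), Idi1 (14) and Nsdhl (16). Mvk (21), Mvd (27), Hmgcs1 (40), Lss (47) and Hsd17b7 (50) followed, so that 12 of the 25 members were among the best 50 genes. An r of at least 0.8 in both groups was met by 9 of 25 members and 0 of the 52 other pathway genes, against 0.291% of the 11346 tested genes. An r of at least 0.9 in both was met by 3 of 25 members, Cyp51, Msmo1 and Dhcr7, against 0.0705%. The median over the members of the lower correlation was 0.697, and over all tested genes, again not matched in level, it was −0.367. Of the 50 relations 14 passed an adjusted exact p of 0.05 for Pearson r, 5 in WT and 9 in Gcg KO. Idi1, Fdps, Cyp51 and Msmo1 passed in both. This test was not run on all tested genes, so no share of them stands beside these counts. By Spearman rho 4 passed, all in Gcg KO: Idi1, Fdps, Cyp51 and Stard4. Some depend on the extreme libraries. For Dhcr7 in Gcg KO r was 0.939 over 6 libraries and 0.390 without 10 and 11. For Msmo1 in WT it was 0.920 and 0.565 without 2 and 6. Leaving out the extremes of Sqle narrows its range and leaves 4 libraries, which by itself tends to lower r.

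The relation was looser or absent in the other members. Srebf2 had r of 0.766 in WT and 0.697 in Gcg KO, and Insig1 had 0.804 and 0.667 (adjusted exact permutation p between 0.110 and 0.208 for both genes). Without the 2 farthest libraries Srebf2 turned to −0.608 in WT and Insig1 to −0.604 in Gcg KO, so these 2 values depend on the extremes. The same limit holds, as only 4 libraries in a narrow range of Sqle remain. Their rho was 0.371 and 0.886 for Srebf2 and 0.771 and 0.429 for Insig1. Pmvk had r of 0.690 and 0.659, Ebp 0.429 and 0.691, and Tm7sf2 0.497 and 0.493, none past the threshold. Stard4 had r of 0.567 in WT (adjusted exact permutation p = 0.409) and 0.962 in Gcg KO (0.0347), a difference that was not tested. Abcg5 lay on the opposite side, at −0.604 and −0.828, and Abcg8 at −0.480 and −0.764, with no value past the threshold (lowest adjusted exact permutation p 0.0884). Acat2, Scap, Insig2, Sc5d and Ggps1 had r between −0.562 and 0.250, none past the threshold.

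**Figure D4:**
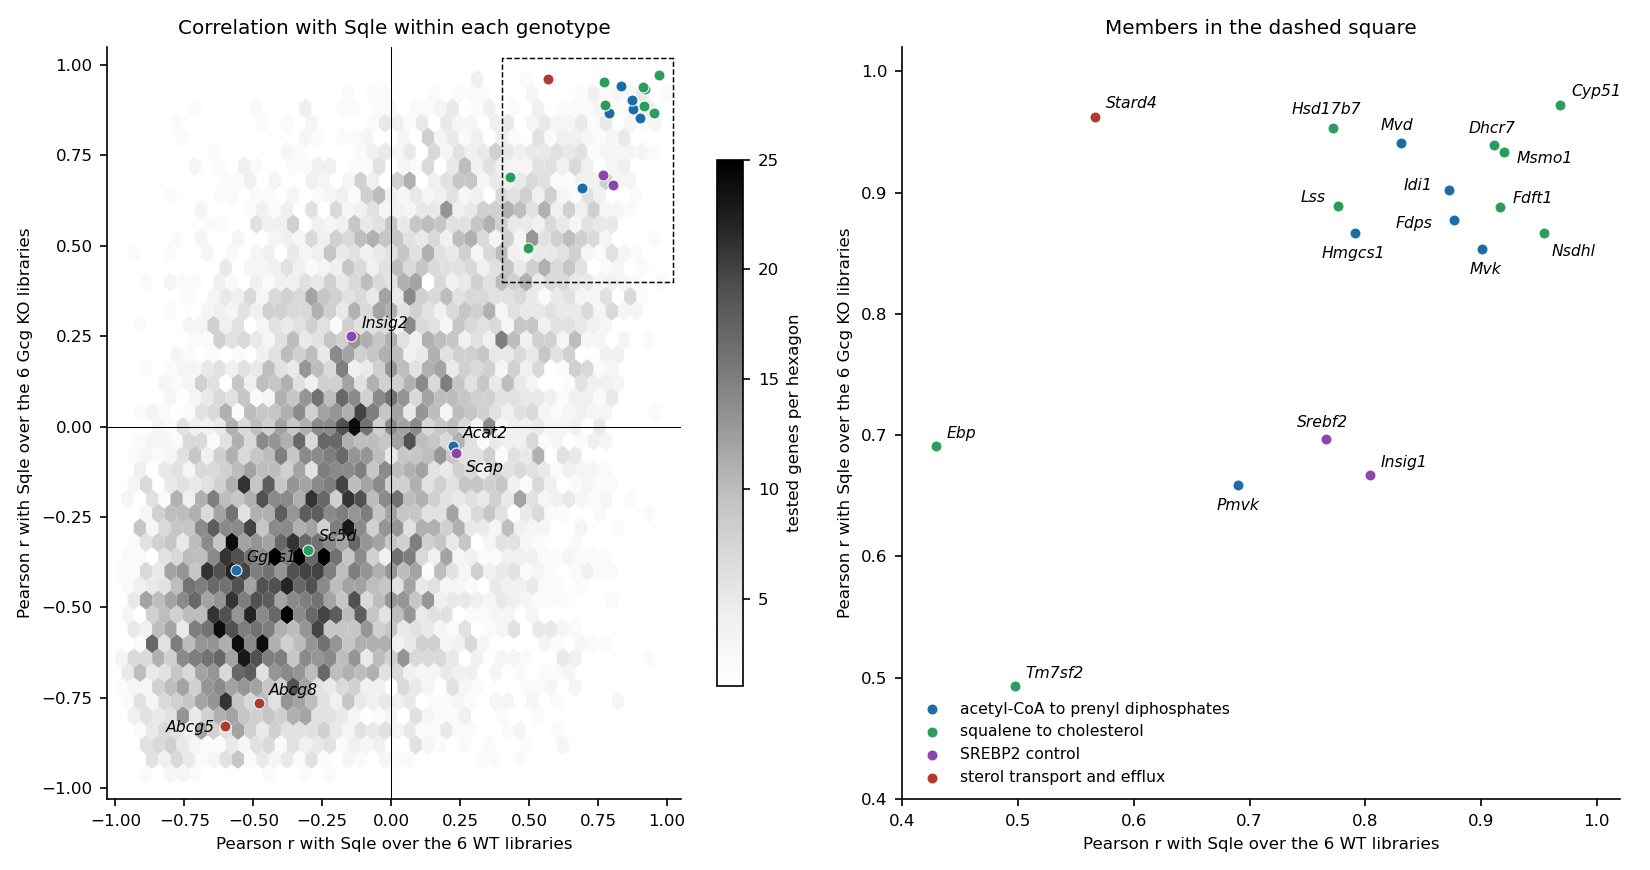
Pearson r with Sqle over the 6 WT libraries (x axis) and over the 6 Gcg KO libraries (y axis), for all tested genes as grey hexagons and for the 25 other members as points coloured by role; the right panel enlarges the dashed square. Cyp51 lies in the upper corner at 0.969 and 0.972, most enzymes lie near it, and Abcg5 and Abcg8 lie on the negative side of both axes.

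Measures of the libraries themselves were set beside Sqle in the same way, for depth, 7 cell type lists and 3 genes of library state in 2 groups, 22 relations in all. None passed an adjusted exact permutation p of 0.05. The largest positive r common to both groups was that of the Kupffer cell markers, at 0.749 in WT and 0.637 in Gcg KO (adjusted exact permutation p = 0.686 for each). The sum of the 7 Kupffer markers was 77.9 to 138 RPKM in WT and 93.8 to 141 in Gcg KO. Estimated depth gave −0.341 and −0.575 (adjusted exact permutation p = 0.788 and 0.686). The part of these measures in the shared movement of the members was not tested beyond these values.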

How the data were processed

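Liver RNA was sequenced as strand-specific poly(A) libraries, 6 WT and 6 Gcg KO, per the labels' protocols. The authors deposited RPKM values per gene, with no counts, so no count test was run. Per the submitters' processing notes, CASAVA 1.8.2 and FastQC were used with build GRCm38. The sources used here do not give the aligner, counter, annotation or treatment of shared reads. RPKM divides by each library's total, so a few very abundant genes can shift all others. Depth was estimated from the steps between low values of genes with 1 transcript. The search was confined to a preset range of depths, so a depth outside that range could not be found. Library grouping followed the genotype label.

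Genes with a mean of at least 0.5 RPKM entered limma 3.58.1 (R 4.3.3) as log2(RPKM + 0.5). The model had no covariate and let the variance follow the mean. Tests were two-sided, with Benjamini-Hochberg adjustment over 11347 genes and a threshold of 0.05. Fold changes on this scale understate those of low genes. The fit was tested on simulated data. Correlations used log2(RPKM + 0.5) within a genotype, with exact two-sided permutation over 720 pairings (Python 3.11.15, scipy 1.17.1). No pair among the 66 pairs of libraries held identical values. Members, lists and tests were chosen with earlier results of these data known. All 26 members were named, and pathway genes only where they passed the threshold. Entrez identifiers of all 26 members matched RefSeq.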

Additional observations from a re-analysis of the deposited data

Results flagged for a closer look

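In 3 of 56 sets of 6 libraries, the highest library lay far above the other 5 by Dixon's gap test (a gap above the 95% critical value). Chance marks about 1 in 20 such sets. Idi1 was at 136 RPKM in WT 5 and at 63.9 to 82.9 in the other WT libraries. Stard4 was at 23.1 RPKM in WT 5 and at 20.6 to 21.1 in the others. Scap was at 35.3 RPKM in WT 4 and at 28.8 to 31.1 in the others.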

How the results depend on the processing

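No paired analysis was possible because the labels number the libraries 1 to 6 in WT and 7 to 12 in Gcg KO, so the groups share no replicate number. Across 21 alternatives (pseudocount, filter, quantile normalization, median centring, trend, array weights, leaving out the 3 libraries or each library in turn), 0 of 546 member values passed the threshold (lowest adjusted p 0.0914 in limma, Ebp without Gcg KO 11). The sign turned in 49 of the 546, in 11 members, all with small changes. These were Mvd under quantile normalization (−0.00588) and median centring (−0.00315), Sqle under median centring (−0.000298), Tm7sf2 under quantile normalization (0.00964) and array weights (0.0127), and Insig1 under quantile normalization (0.0487) and without the 3 libraries (0.0276). Leaving out each library in turn gave log2 ranges of −0.00821 to 0.213 (Hmgcs1), −0.0589 to 0.122 (Mvd), −0.0616 to 0.131 (Fdft1), −0.143 to 0.163 (Sqle), −0.0835 to 0.139 (Cyp51), −0.0641 to 0.0469 (Tm7sf2), −0.204 to 0.0617 (Msmo1), −0.182 to 0.0617 (Hsd17b7), −0.0722 to 0.00205 (Srebf2), −0.0590 to 0.0618 (Insig1) and −0.0513 to 0.203 (Insig2). The count of pathway genes that rose was 1 with no filter, 1 without the 3 libraries and 1 to 3 with a library left out; Nceh1 lost its call in 13 of the 21 and Cyb5r3 in 0. The median correlation between members in Gcg KO was 0.536 under median centring and 0.548 without the 3 libraries; with a library left out it was 0.463 to 0.553 in Gcg KO and 0.273 to 0.558 in WT. The cause was not tested. The precision differed between members, with standard errors of the log2 fold change from 0.07 (Scap) to 0.26 (Sqle).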

Other observations

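Acat3, the near copy that lies next to Acat2, was looked at after the values of Acat2 were seen. It was at 64.9 to 78.7 RPKM in WT (median 72.2) and 52.8 to 67.8 in Gcg KO (median 59.8). Its log2 fold change was −0.24 ± 0.07 (SE, n = 6 per group), with an adjusted p of 0.0934 in limma, so it was not called. Acat2 changed by −0.08 ± 0.07 on the same scale.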
